A study of Homo sapiens with 9 samples.

Results

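The RNA levels of 10 genes of tryptophan breakdown and of the aryl hydrocarbon receptor (AHR) were read in 9 bulk RNA-seq libraries of MDA-MB-468, an established human breast adenocarcinoma line. The genes were picked by symbol from a table of 56809 genes: the enzymes TDO2, IDO1, AFMID, KMO and KYNU, the receptor gene AHR, its repressor AHRR, and the AHR target genes CYP1A1, CYP1B1 and TIPARP. Reads were counted for 9 of the 10, and these 9 were among the 14709 genes tested. TDO2 heads the set because earlier results of these same libraries had chosen it by its fall against control in both hairpin groups, so its values against control are a description and carry no test.

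The control cells were infected with the empty lentiviral vector pSicoR. The other cells carried shLMO2-1 or shLMO2-2, short hairpin RNAs named for LMO2, a LIM-domain adaptor of transcription factor complexes. Each of the 3 groups has 3 libraries of polyadenylated RNA from 200000 harvested cells, and all groups share the line and the vector backbone. The control carries an empty vector and no hairpin, so the loss of the target and the presence of any hairpin cannot be told apart. This holds for either hairpin alone, for both together and for their mean. Whether the replicates were separate cultures, and whether the infected cells were selected or cloned, is not given in the sources used here. The p-values therefore measure only the spread between these libraries, which may be technical.

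Tryptophan that is not built into protein is mostly broken down along the kynurenine pathway. TDO2, an enzyme best known from liver, and IDO1, which interferon gamma induces in many cells, open the ring to N-formylkynurenine, and AFMID turns this into kynurenine. KMO hydroxylates kynurenine, and KYNU cleaves kynurenine and its hydroxylated form on the way to NAD. Kynurenine is also a ligand of AHR, a receptor that pairs with ARNT on DNA and turns on CYP1A1, CYP1B1, TIPARP and its own repressor AHRR. Some breast cancer cells express TDO2 and release kynurenine.

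TDO2 lies on chromosome 4 (155854738 to 155920406, plus strand, GENCODE release 29, GRCh38), KYNU on chromosome 2 (142877498 to 143055832, plus strand), CYP1A1 on chromosome 15 (74719542 to 74725610, minus strand) and TIPARP on chromosome 3 (156673235 to 156706770, plus strand). The 250 bases before the RefSeq start (GRCh38.p14) are shown for a pair of members that were low in both hairpin groups, TDO2 and KYNU, and a pair of AHR targets, CYP1A1, which was high, and TIPARP, which did not pass the test. The first pair is taken from chr4:155903446-155903695 and chr2:142877414-142877663, both plus strand. The second is taken from chr15:74725529-74725778, minus strand, and chr3:156674340-156674589, plus strand. All are written 5′ to 3′. TIPARP has 3 RefSeq starts, and the bases shown precede the first by position. Capitals in TDO2 and KYNU mark the E-box letters CANNTG, which basic helix-loop-helix factors can bind. Capitals in CYP1A1 and TIPARP mark GCGTG, the core of the AHR response element, or its reverse complement CACGC. The printed CYP1A1 bases also hold 1 E-box, which is left in lower case.
TDO2: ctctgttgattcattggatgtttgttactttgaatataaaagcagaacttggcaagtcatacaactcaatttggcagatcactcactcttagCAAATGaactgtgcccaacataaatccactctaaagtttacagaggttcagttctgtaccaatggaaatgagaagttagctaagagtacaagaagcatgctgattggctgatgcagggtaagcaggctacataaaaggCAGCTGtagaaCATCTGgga
KYNU: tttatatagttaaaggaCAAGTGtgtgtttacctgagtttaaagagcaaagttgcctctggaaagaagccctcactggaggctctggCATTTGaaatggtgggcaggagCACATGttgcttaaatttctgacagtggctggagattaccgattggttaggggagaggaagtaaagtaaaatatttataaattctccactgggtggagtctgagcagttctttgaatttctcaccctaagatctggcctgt
CYP1A1: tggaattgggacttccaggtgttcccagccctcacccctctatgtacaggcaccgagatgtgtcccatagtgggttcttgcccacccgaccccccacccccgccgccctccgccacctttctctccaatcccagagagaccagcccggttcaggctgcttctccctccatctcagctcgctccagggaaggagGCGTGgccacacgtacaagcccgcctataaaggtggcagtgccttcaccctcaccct
TIPARP: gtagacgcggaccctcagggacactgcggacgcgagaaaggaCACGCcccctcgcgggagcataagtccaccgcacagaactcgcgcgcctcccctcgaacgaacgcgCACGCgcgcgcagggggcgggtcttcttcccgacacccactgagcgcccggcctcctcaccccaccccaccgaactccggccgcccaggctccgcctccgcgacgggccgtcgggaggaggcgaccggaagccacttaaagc

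Motif letters were counted on both strands in windows of 300 bases, from 250 before to 50 after the start, for 8 of the 10 members, which have 11 windows. The TDO2 window held 4 CANNTG, counting 1 that starts at base 14 after the start, and at least 4 were found in 5.58% of the 35116 windows of the table. It also held 1 AGAACA, a glucocorticoid receptor half-site, from position -13, whose letters overlap an E-box. That half-site was found in 14.8% of all windows. The KYNU window held 3 CANNTG, a number reached by 15.3% of windows, and 2 TTCNNNGAA, the letters of a STAT site, a number reached by 0.456% of windows. CANNTG was not particular to this pair. It was also found in the windows of KMO (1), AHR (2) and CYP1A1 (1), in 1 AHRR window (1) and in 1 TIPARP window (2). At least 1 was found in 68.7% of all windows. No GCGTG was found in the TDO2, KYNU or KMO windows. It was found in AFMID, AHR and CYP1A1 once each and in 2 AHRR windows. TIPARP held GCGTG at 2 places in 1 window, that of the bases printed above, and its other windows held none. GCGTG was found in 36.5% of all windows. The longer form TNGCGTG was found in AHRR and in 5.51% of all windows. GATAA, the letters of a GATA site, was found in no member window and in 22.7% of all windows. A match is a description of letters and no evidence of binding.

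Library totals lay between 15494486 and 23069456 counts. LMO2 itself was scarce: it had 4, 35 and 19 counts in the control libraries, 2, 1 and 6 with shLMO2-1 and 1, 4 and 3 with shLMO2-2. On the CPM scale control replicate 1 overlapped shLMO2-1 and lay just above shLMO2-2. The LMO2 log2 fold change was −2.44 in shLMO2-1 (SE 0.813, adjusted p 0.0907), −3.02 in shLMO2-2 (SE 0.819, adjusted p 0.0441) and −2.73 for the mean of both (SE 0.656, adjusted p 0.0216, edgeR). Control replicate 1 also stood apart across all genes, with a chi-square per gene of 27.1 and 18.43 against the other controls, where other pairs of a group gave 4.93 to 13.35. The epithelial markers EPCAM, CDH1, KRT8, KRT18, KRT19, KRT5 and EGFR were all abundant, with summed levels of 13400 to 14400 CPM (counts scaled to a common library size) in control, 15600 to 16300 in shLMO2-1 and 14800 to 16200 in shLMO2-2. PGR was at 0 counts, and ESR1 and ERBB2 reached at most 6.19 and 58.6 CPM. The summed markers of leukocytes reached 12.7, of fibroblasts 17.2 (nearly all COL1A1), of endothelium 6.57 and of hepatocytes 1.23 CPM, with CD3E, LYZ, COL3A1, LUM and TTR at 0 counts. The leukocyte sum was 5.55 to 8.04 in control, 8.42 to 12.7 in shLMO2-1 and 7.56 to 9.78 in shLMO2-2, and its part in the results was not tested. Over all libraries CSF1R had 3.73 to 7.1 CPM, CD14 0.804 to 3.49 and CD68 0.616 to 2.14, while PTPRC reached at most 0.348.

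TDO2 was low in both hairpin groups. Of the 8 other members tested, KYNU was lower and CYP1A1 higher in shLMO2-1, and KYNU was lower and CYP1B1 higher in shLMO2-2, all at an adjusted p under 0.05. In the mean of both hairpins KYNU was lower and CYP1A1 and CYP1B1 were higher. Over all genes tested, 4.54% were called higher and 3.88% lower in shLMO2-1, 4.94% higher and 4.04% lower in shLMO2-2, and 6.47% higher and 5.93% lower in the mean. TDO2 was chosen by these contrasts and is left out of the counts, and a share of so few genes is not read further. The hairpin groups share the control libraries. In bulk samples, fewer cells that express a gene and less of its RNA per cell cannot be told apart.

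TDO2, the enzyme that opens the tryptophan ring, had 184, 190 and 188 counts in control, 56, 60 and 34 with shLMO2-1 and 83, 65 and 91 with shLMO2-2. Scaled to TMM-adjusted library totals these are 10.67, 9.738 and 9.939 CPM in control, 3.15, 3.516 and 2.242 with shLMO2-1 and 3.61, 3.017 and 4.088 with shLMO2-2. All 6 hairpin libraries lay below all 3 controls, and the hairpin groups overlapped each other. The means were 10.1 ± 0.489 CPM in control, 2.97 ± 0.656 with shLMO2-1 and 3.57 ± 0.537 with shLMO2-2 (SD, n = 3), a level 3.39 and 2.83 times lower than control (log2 fold change −1.76, SE 0.187, and −1.50, SE 0.18). Between the hairpins the log2 difference was 0.26 (SE 0.194, adjusted p 0.733, edgeR). TDO2 was chosen for a fall in both hairpin groups, so this contrast is not free of the choice and is also a description. With each library left out in turn and under the other settings, the log2 fold change of TDO2 stayed between −1.90 and −1.60 in shLMO2-1 and between −1.61 and −1.40 in shLMO2-2.

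The genes beside TDO2 were looked at for their levels alone. ASIC5, an ion channel gene whose span overlaps that of TDO2 on the opposite strand without sharing an exon, had 0 counts in every library. CTSO, the neighbouring cathepsin gene, had 22.1 ± 0.455 CPM in control, 21.1 ± 0.566 with shLMO2-1 and 21.8 ± 1.51 with shLMO2-2 (SD, n = 3), and its groups overlapped.

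IDO1, which catalyses the same step as TDO2, had 0 counts in all 9 libraries. A count of 0 allows up to 3 counts, or 0.13 to 0.194 CPM in a library, and speaks to counting error only, as PCR copies cannot be told from separate molecules. IDO2, the related gene, was also at 0 counts. Ring opening was thus represented in the counts by TDO2 only among these 3 genes.

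KYNU, the hydrolase that cleaves kynurenine, fell in both hairpin groups. It had 159.3, 162.2 and 150.1 CPM in control, 90.44, 102.8 and 102.7 with shLMO2-1 and 109.8, 103.4 and 112.7 with shLMO2-2. All hairpin libraries lay below all controls, and all shLMO2-2 libraries lay above all shLMO2-1 libraries. From 157 ± 6.30 CPM in control it went to 98.7 ± 7.11 with shLMO2-1 and 109 ± 4.76 with shLMO2-2 (SD, n = 3). The log2 fold change was −0.67 in shLMO2-1 (SE 0.071, adjusted p 0.000377) and −0.53 in shLMO2-2 (SE 0.07, adjusted p 0.00166, edgeR). Between the hairpins it differed by 0.14 (SE 0.07, adjusted p 0.546). KYNU passed the test under every setting tried in both hairpins, with adjusted p-values up to 0.00309 with shLMO2-1 and 0.0134 with shLMO2-2.

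KMO, the hydroxylase between TDO2 and KYNU, did not pass the test with the filter on low counts and no covariate. It had 15.01, 10.51 and 9.679 CPM in control, 12.47, 10.16 and 11.35 with shLMO2-1 and 9.415, 8.751 and 5.938 with shLMO2-2. The shLMO2-2 libraries lay below all controls and all shLMO2-1 libraries, while shLMO2-1 overlapped the controls. The log2 fold change was −0.05 in shLMO2-1 (SE 0.203, adjusted p 0.919) and −0.54 in shLMO2-2 (SE 0.204, adjusted p 0.126, edgeR). With no filter KMO passed in shLMO2-2 (−0.53, adjusted p 0.0282, edgeR). It also passed there with the filter kept and the replicate number as a block (−0.54, adjusted p 0.026, edgeR). KMO (chromosome 1, 241532134 to 241595642) shares exon sequence with OPN3, which runs on the opposite strand at 53.9 CPM, and whether the counting used strand is not given in the sources used here, so its counts are uncertain.

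AFMID, the formamidase that yields kynurenine, had 9.566, 9.379 and 10.57 CPM in control, 9.449, 9.728 and 8.835 with shLMO2-1 and 8.698, 8.773 and 9.929 with shLMO2-2. The 3 groups overlapped. Its log2 fold change was −0.07 in shLMO2-1 (SE 0.118, adjusted p 0.755) and −0.11 in shLMO2-2 (SE 0.116, adjusted p 0.615, edgeR). Its neighbours TK1 and BIRC5, both expressed in dividing cells, overlapped between groups too: TK1 had 153 ± 31.8 CPM in control, 156 ± 14.8 with shLMO2-1 and 148 ± 8.22 with shLMO2-2, and BIRC5 had 158 ± 41.5, 167 ± 26.8 and 168 ± 17.9 CPM (SD, n = 3).

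**Figure D1:**
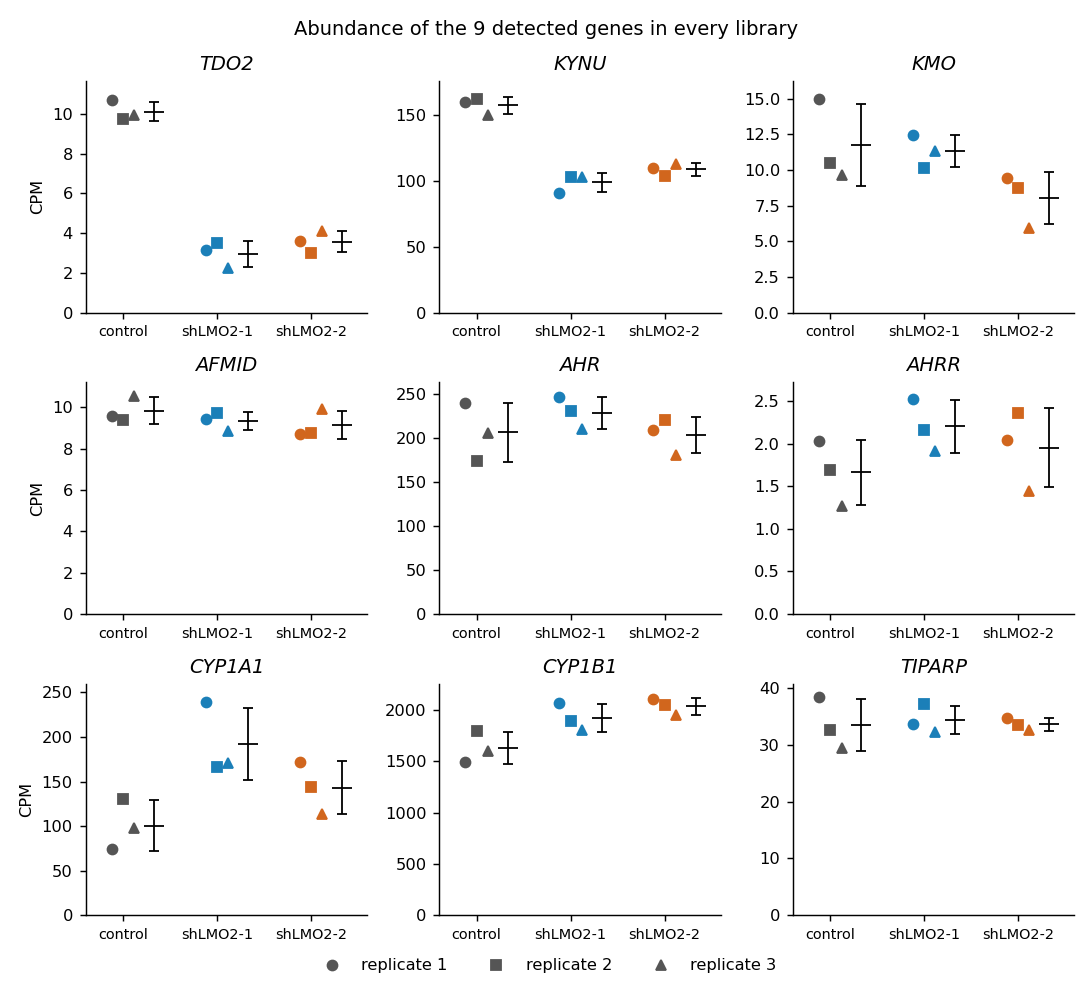
CPM of the 9 detected genes (y axis, linear, from 0) in each of the 9 libraries by group, with the group mean and SD as a bar beside the points and replicate numbers as marker shapes. TDO2 sits between 9.738 and 10.67 CPM in control and between 2.242 and 4.088 in the hairpin libraries, and KYNU shows the same separation, while AFMID, AHR, AHRR and TIPARP overlap between groups.

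AHR, the receptor that kynurenine can bind, had 240.4, 173.8 and 205.6 CPM in control, 246.3, 230.6 and 209.8 with shLMO2-1 and 209.3, 220.3 and 180.7 with shLMO2-2. The groups overlapped throughout. Its log2 fold change was 0.15 in shLMO2-1 (SE 0.115, adjusted p 0.478) and −0.02 in shLMO2-2 (SE 0.115, adjusted p 0.928, edgeR), and the sign in shLMO2-2 turned when some single libraries were left out. AHRR, the repressor that competes with AHR for ARNT, was low at 2.029, 1.691 and 1.269 CPM in control, 2.531, 2.168 and 1.912 with shLMO2-1 and 2.044, 2.367 and 1.45 with shLMO2-2. Its groups overlapped, with log2 fold changes of 0.41 (SE 0.285, adjusted p 0.419) and 0.23 (SE 0.281, adjusted p 0.661). AHRR shares exon sequence with PDCD6, at 110 CPM, so reads could be split between them and its counts are uncertain.

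CYP1A1, the AHR target used most often as a readout of the receptor, rose in shLMO2-1. It had 73.86, 130.1 and 97.59 CPM in control, 239.3, 166.8 and 170.8 with shLMO2-1 and 172.3, 143.6 and 113.2 with shLMO2-2. The shLMO2-1 libraries lay above all controls, while shLMO2-2 replicate 3 lay below control replicate 2. From 101 ± 28.3 CPM in control the mean was 192 ± 40.7 with shLMO2-1 and 143 ± 29.6 with shLMO2-2 (SD, n = 3). The log2 fold change was 0.93 in shLMO2-1 (SE 0.212, adjusted p 0.0223), 0.51 in shLMO2-2 (SE 0.211, adjusted p 0.161) and 0.72 in the mean of both (SE 0.188, adjusted p 0.03, edgeR). The hairpins differed from each other by −0.43 (SE 0.209, adjusted p 0.525), so a larger rise in shLMO2-1 was not shown.

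The CYP1A1 calls rested on single libraries. In shLMO2-1 the adjusted p of CYP1A1 was 0.0765 without control replicate 3 and 0.0792 without shLMO2-1 replicate 1, at log2 fold changes of 0.91 and 0.75. In the mean of both the adjusted p rose to 0.0766 without control replicate 1 and 0.102 without control replicate 3. It was 0.0569 when shLMO2-2 replicate 1 was dropped and 0.0625 when replicate 2 was. The log2 fold changes of CYP1A1 in these 4 fits were 0.54, 0.70, 0.64 and 0.72, beside 0.72 with all libraries. The direction was the same in all of these.

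CYP1B1, which hydroxylates oestradiol and polycyclic hydrocarbons and is also induced through AHR, rose by a small amount in shLMO2-2. It had 1492, 1801 and 1598 CPM in control, 2072, 1892 and 1802 with shLMO2-1 and 2114, 2048 and 1949 with shLMO2-2. All hairpin libraries lay above all controls, with shLMO2-1 replicate 3 and control replicate 2 all but level. The means were 1630 ± 157 CPM in control, 1922 ± 137 with shLMO2-1 and 2037 ± 83.2 with shLMO2-2 (SD, n = 3). The log2 fold change was 0.24 in shLMO2-1 (SE 0.074, adjusted p 0.0741), 0.32 in shLMO2-2 (SE 0.074, adjusted p 0.0241) and 0.28 in the mean of both (SE 0.065, adjusted p 0.0189, edgeR).

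These CYP1B1 calls also depended on single libraries, while the direction was the same in each fit. In shLMO2-2 the adjusted p of CYP1B1 was 0.0859 without control replicate 3, and 0.0848, 0.0884 and 0.051 without shLMO2-2 replicates 1, 2 and 3. The log2 fold changes were then 0.31, 0.29, 0.31 and 0.35, beside 0.32 with all libraries. In the mean of both the adjusted p was 0.0509 if control replicate 1 was dropped and 0.0825 without control replicate 3, at log2 fold changes of 0.21 and 0.26. In shLMO2-1 the call was gained, among other settings, without control replicate 2 (adjusted p 0.0252), with DESeq2 (0.046) and with no filter on low counts (0.0136). CYP1B1 (chromosome 2, 38066973 to 38109902, minus strand) shares exon sequence with RMDN2 and CYP1B1-AS1 on the opposite strand, which stood at 8.51 and 3.71 CPM.

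TIPARP, an ADP-ribosyltransferase that AHR induces and that limits AHR in turn, had 38.44, 32.6 and 29.5 CPM in control, 33.69, 37.21 and 32.37 with shLMO2-1 and 34.79, 33.47 and 32.66 with shLMO2-2. All hairpin values lay within the control range. An antisense gene, TIPARP-AS1, shares exon sequence with it and stood at 0.73 CPM. Its log2 fold change was 0.04 in shLMO2-1 (SE 0.103, adjusted p 0.86) and 0.01 in shLMO2-2 (SE 0.102, adjusted p 0.977, edgeR), with signs that turned under other settings. Of the 4 AHR-regulated members, 1 passed the test in each hairpin, CYP1A1 in shLMO2-1 and CYP1B1 in shLMO2-2. Over all genes 4.54% were called higher in shLMO2-1 and 4.94% in shLMO2-2, and a share of so few genes is not read further. CYP1A1 and CYP1B1 both lay above 0 in both hairpins. Neither passed between the hairpins (−0.43, adjusted p 0.525, and 0.08, SE 0.074, adjusted p 0.788, edgeR), so a split of the 2 genes by hairpin was not shown.

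**Figure D2:**
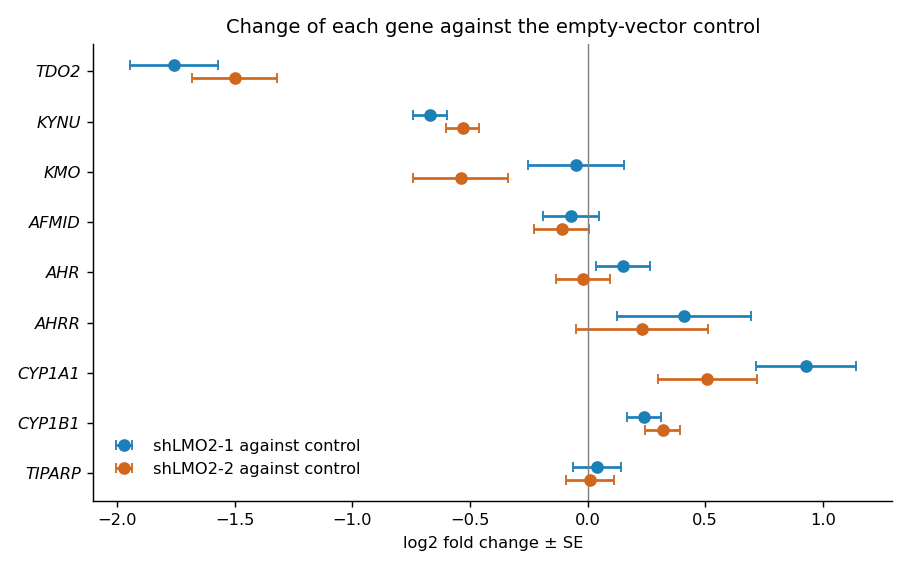
Log2 fold change against control (x axis, with SE as the bar) of each tested member in shLMO2-1 and shLMO2-2, from 3 libraries a group. TDO2 (−1.76 and −1.50) and KYNU (−0.67 and −0.53) lie left of 0 in both hairpins, CYP1A1 (0.93 and 0.51) and CYP1B1 (0.24 and 0.32) lie right of it, and the TDO2 points are shown as a description.

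Between the hairpins themselves, a contrast in which the controls enter only the shared estimate of the spread, 0 of the 9 tested members passed with edgeR, DESeq2 or limma-voom, against 0.768% of all genes with edgeR. At an unadjusted p under 0.05 there was 1, KMO (log2 difference −0.49, SE 0.205, p 0.0351, adjusted p 0.405). The differences of the other members lay between −0.43 for CYP1A1 and 0.26 for TDO2.

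**Figure D3:**
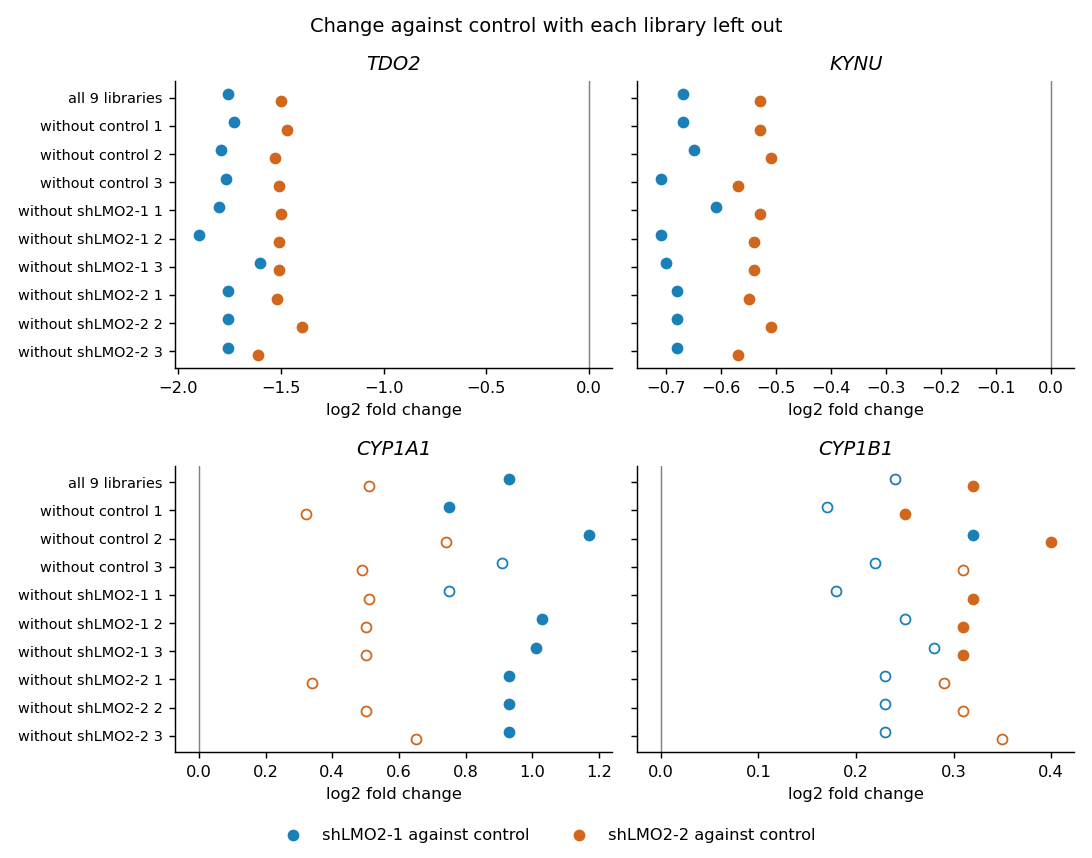
Log2 fold change against control (x axis) of TDO2, KYNU, CYP1A1 and CYP1B1 with all 9 libraries and with each library left out in turn (y axis), for both hairpins. Open points have an adjusted p of 0.05 or more, except in the TDO2 panel, where no test is shown. TDO2 and KYNU keep their place in every row, between −1.90 and −1.40 and between −0.71 and −0.51, while CYP1A1 and CYP1B1 lose or gain the call with single libraries.

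Levels between genes were compared per kilobase of merged exon and scaled to a common total (TPM-like values). In control CYP1B1 stood highest at 1060 ± 72.2, at rank 104 of the genes tested. It was followed by CYP1A1 at 114 ± 28.9 and AHR at 101 ± 19.5, which overlapped, then KYNU at 35.1 ± 1.84 and TIPARP at 26.1 ± 4.32. AFMID (9.54 ± 0.651), KMO (7.79 ± 2.17) and TDO2 (7.55 ± 0.616) followed, and the last pair did not differ beyond their spread. AHRR was lowest of the detected genes at 0.853 ± 0.217, and IDO1 was at 0 (SD, n = 3). The order depended on the length used: with the median transcript length CYP1B1 remained first and AHRR last, and AHR and KYNU moved above CYP1A1.

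The log2 CPM of KYNU followed that of TDO2 over the 9 libraries with Pearson's r of 0.95, and those of AFMID and KMO with r of 0.58 and 0.26. CYP1A1 and CYP1B1 ran opposite to TDO2 (r −0.77 and −0.76), as did AHRR (−0.53), while AHR (−0.23) and TIPARP (−0.05) had little relation to it. These values are descriptions, since the 9 libraries fall into 3 groups that share their control and TDO2 was chosen for its difference between them. Among 11030 genes with a mean of at least 5 CPM, those most like TDO2 were PARP4 (r 0.985), OGFOD1 (0.981), APLP1 (0.98), FANCI (0.979) and OLFM2 (0.978). OLFM2, an olfactomedin-domain gene, had 58.2 ± 3.10 CPM in control, 25.0 ± 0.702 with shLMO2-1 and 29.2 ± 1.68 with shLMO2-2 (SD, n = 3).

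Of 13 further enzymes of the kynurenine pathway and its branches to NAD and kynurenic acid, IDO2 among them, 11 were tested and 0 passed in either hairpin. In the mean of both 0 passed as well. Over all genes 4.54% were called higher and 3.88% lower in shLMO2-1, and 4.94% and 4.04% in shLMO2-2. In the mean these shares were 6.47% and 5.93%, so a count of 0 among 11 is close to the background. Their median log2 fold change in the mean of both was 0.12, beside −0.002 over all genes. The 4 with the smallest p were QPRT, the step into NAD synthesis, NADSYN1, the last step, KYAT3, a transaminase that makes kynurenic acid, and GCDH. Their log2 fold changes in the mean of both were 0.15 (QPRT, adjusted p 0.153), 0.17 (NADSYN1, adjusted p 0.16), −0.08 (KYAT3, adjusted p 0.361) and 0.15 (GCDH, adjusted p 0.407, edgeR).

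Among other routes of tryptophan, 1 gene was called in each direction. Of 11 genes for the other uses of tryptophan, 3 were tested, with 1 higher and 1 lower in each hairpin. Their median was −0.02 in the mean of both. Over all genes 4.54% were called higher and 3.88% lower in shLMO2-1, and 4.94% and 4.04% in shLMO2-2. A share of so few genes is not read further. DDC, the decarboxylase of serotonin and dopamine synthesis, fell: it had 12.23, 12.81 and 13.64 CPM in control, 6.524, 5.157 and 6.923 with shLMO2-1 and 5.653, 7.195 and 6.784 with shLMO2-2. The hairpin libraries of DDC all lay below the controls, at log2 fold changes of −1.06 (SE 0.148, adjusted p 0.002) and −0.98 (SE 0.145, adjusted p 0.0028, edgeR). TPH1 and TPH2, the tryptophan hydroxylases before DDC in serotonin synthesis, were not tested, with 0 and 2 counts over all libraries. Whether the fall of DDC bears on tryptophan was not tested. WARS (WARS1), the cytosolic tRNA synthetase that charges tryptophan, rose from 178 ± 7.36 CPM to 244 ± 4.98 with shLMO2-1 and 221 ± 6.96 with shLMO2-2 (SD, n = 3), at 0.46 (adjusted p 0.000943) and 0.31 (adjusted p 0.00802). WARS2, its mitochondrial counterpart, was at −0.02 in the mean of both (adjusted p 0.925).

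Of 8 carriers of tryptophan or kynurenine, 7 were tested, and in each hairpin 1 rose and 1 fell. Their median was −0.23 in the mean of both. The shares over all genes were 4.54% higher and 3.88% lower in shLMO2-1, and 4.94% and 4.04% in shLMO2-2. SLC7A5, the light chain of the large neutral amino acid carrier LAT1, rose from 594 ± 27.8 CPM to 771 ± 32.1 with shLMO2-1 and 762 ± 17.9 with shLMO2-2 (SD, n = 3), at 0.38 (adjusted p 0.00245) and 0.36 (adjusted p 0.00323, edgeR). SLC36A4, an amino acid carrier with high affinity for tryptophan, fell from 30.8 ± 2.44 CPM to 20.4 ± 1.44 and 20.4 ± 1.89, at −0.59 (adjusted p 0.00627) and −0.60 (adjusted p 0.00577). SLC3A2, the heavy chain partner of SLC7A5, had −0.20 in the mean of both (adjusted p 0.0693), and SLC7A8, the LAT2 light chain, had −0.71 (adjusted p 0.122). SLC7A8 was low, at 2.29 ± 0.578 CPM in control. DDC, WARS, SLC7A5 and SLC36A4 passed in both hairpins under every setting tried.

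Of 11 genes of the AHR complex and its partners, all were tested, with 1 lower in shLMO2-1, 2 lower in shLMO2-2 and 0 higher. Beside these, 4.54% of all genes were called higher and 3.88% lower in shLMO2-1, and 4.94% and 4.04% in shLMO2-2. A count of 0 higher among 11 is thus close to the background. HSP90AB1, the chaperone that holds AHR in the cytosol, fell from 1809 ± 34.8 CPM to 1409 ± 6.03 with shLMO2-1 and 1456 ± 44.8 with shLMO2-2 (SD, n = 3), at −0.36 (adjusted p 0.00087) and −0.31 (adjusted p 0.00227, edgeR). CUL4B, a ubiquitin ligase scaffold that AHR can recruit, fell in shLMO2-2 by 0.22 on the log2 scale (adjusted p 0.039), a call lost in 9 of 18 alternatives, and had −0.20 in shLMO2-1 (adjusted p 0.0549). PTGES3, the co-chaperone p23, and ARNT2 had −0.15 (adjusted p 0.0605) and −1.49 (adjusted p 0.0709) in the mean of both, and ARNT2 was at or below about 1.391 CPM. The median of the list in the mean of both was −0.06.

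Of 20 further AHR target genes, 12 were tested, with 1 higher and 0 lower in shLMO2-1 and 2 higher and 1 lower in shLMO2-2. Their median was 0.00 in the mean of both. Among all genes 4.54% were called higher and 3.88% lower in shLMO2-1, and 4.94% and 4.04% in shLMO2-2. FOXQ1, a forkhead transcription factor gene, rose from 32.6 ± 3.999 CPM to 63.2 ± 6.79 with shLMO2-1 and 46.4 ± 2.99 with shLMO2-2 (SD, n = 3), at 0.96 (adjusted p 0.000518) and 0.51 (adjusted p 0.0168, edgeR; 0.0761 without shLMO2-2 replicate 2). ITPRIP, which modulates a calcium channel of the endoplasmic reticulum, had 8.37 ± 0.434 CPM in control, 11.2 ± 1.11 with shLMO2-1 and 11.7 ± 1.00 with shLMO2-2. It passed in shLMO2-2 at 0.49 (adjusted p 0.0335), a call lost in 7 of 18 alternatives. IL6, the interleukin 6 gene, was at 2.957, 1.128 and 0.7401 CPM in control and at or under 0.8999 in the hairpin libraries, and its call in shLMO2-2 (−2.14, adjusted p 0.0406) was lost in 9 of 17 alternatives. UGT1A6, a conjugating enzyme, had −1.05 in the mean of both (adjusted p 0.0793) and was low, at 2.54 ± 0.537 CPM in control.

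**Figure D4:**
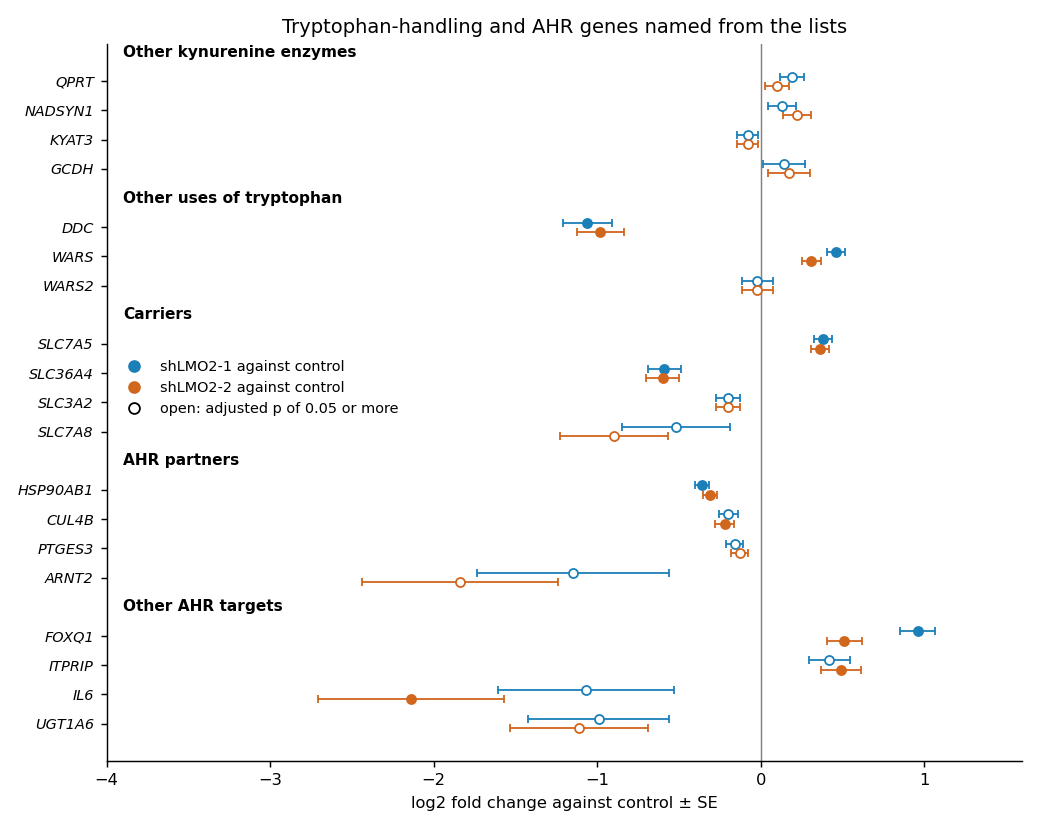
Log2 fold change against control (x axis, with SE as the bar) of the genes named from 5 lists, by list, in shLMO2-1 and shLMO2-2; open points have an adjusted p of 0.05 or more. DDC (−1.06 and −0.98), SLC36A4 and HSP90AB1 lie left of 0, and WARS, SLC7A5 and FOXQ1 (0.96 and 0.51) lie right of it, with filled points in both hairpins.

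A pair of signalling lists was read in the same fit. Of 13 genes of the interferon gamma response, 10 were tested. They hold the receptor and signalling chain that can induce IDO1 and other genes that interferon gamma induces. Against control 0 were higher, while 1 was lower in shLMO2-1, 2 in shLMO2-2 and 3 in the mean of both. The median was −0.25 in the mean of both. Over all genes 4.54% were called higher and 3.88% lower in shLMO2-1, and 4.94% and 4.04% in shLMO2-2. In the mean these shares were 6.47% and 5.93%, so 0 higher among 10 is close to the background. IRF1 and IFNGR1 fell in shLMO2-2 (−0.38, adjusted p 0.0141, and −0.46, adjusted p 0.00135, edgeR). Without shLMO2-2 replicate 3 the IRF1 call was lost (adjusted p 0.0541, edgeR). In shLMO2-1 the same genes had −0.22 (adjusted p 0.117) and −0.16 (adjusted p 0.113, edgeR). They passed in the mean of both at −0.30 (adjusted p 0.016) and −0.31 (adjusted p 0.00304, edgeR). JAK2 had −0.35 in the mean of both (adjusted p 0.0568). The glucocorticoid receptor induces TDO2 in liver. Its list has 12 genes, which are the receptor gene, genes it induces and factors that act with it. Of these 9 were tested, with 1 higher and 2 lower in shLMO2-1 and 0 higher and 1 lower in shLMO2-2. Their median was −0.07 in the mean of both. The shares over all genes in each hairpin are those just given, and a share of so few genes is not read further. FKBP5, a chaperone that the receptor induces, fell in both hairpins, from 99.0 ± 3.13 CPM to 80.7 ± 3.61 and 74.4 ± 3.56 (SD, n = 3), at −0.30 (adjusted p 0.0196) and −0.41 (adjusted p 0.00387). Its call in shLMO2-1 was lost in 3 of 18 alternatives. DUSP1, a phosphatase, fell in shLMO2-1 (−0.73, adjusted p 0.0482, lost in 8 of 18) and had −0.54 in shLMO2-2 (adjusted p 0.115, edgeR). In the mean of both DUSP1 was at −0.64 (adjusted p 0.0324, edgeR), a call lost in 4 of 17 alternatives. SGK1, a kinase, rose in shLMO2-1 (0.70, adjusted p 0.0353, lost in 7 of 18) and had −0.05 in shLMO2-2 (adjusted p 0.897). PER1 had −0.33 in the mean of both (adjusted p 0.0572).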

How the data were processed

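The 9 libraries were grouped by the plasmid named in their labels. The authors deposited 1 table of estimated counts per gene and library, in which 11.67% to 12.81% of values are not whole. The submitters' processing notes name Salmon 0.12, DESeq2 1.22.2 and GRCh38.p12 without their roles, and strand use is not given in the sources used here. Counts were rounded and tested with edgeR 4.0.16 in R 4.3.3 (quasi-likelihood F-test, TMM scaling, filterByExpr with minimum count 10 and total 15, all 9 libraries, no covariate), with Benjamini-Hochberg adjustment over 14709 genes holding 99.91% of counts. LMO2 failed the filter and was added back. Genes were called at an adjusted p under 0.05. CPM uses TMM-scaled totals, and marker sums use plain totals. Coordinates come from GENCODE release 29, not from the authors. Members and lists were chosen with earlier results of these data known. Named were all members, LMO2, the neighbours of TDO2 and AFMID, the 5 genes most like TDO2 and, from each list, up to 4 genes ranked by p in the contrast of both hairpins with control, with 1 gene not reported here. Alternatives were 3 other scalings, 2 other filters, DESeq2 1.42.0, limma-voom (limma 3.58.1), a replicate block, a fit of only the groups compared, a stricter threshold (0.01) and each library omitted in turn.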

Additional observations from a re-analysis of the deposited data

Results flagged for a closer look

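IFNGR1, the ligand-binding chain of the interferon gamma receptor, differed between the hairpins. It had 243 ± 10.9 CPM in control, 217 ± 8.21 with shLMO2-1 and 176 ± 3.98 with shLMO2-2 (SD, n = 3), and no libraries overlapped between the groups. It was singled out because the test of shLMO2-2 against shLMO2-1 passed, at a log2 fold change of −0.30 (SE 0.059, adjusted p 0.0462, edgeR). The IFNGR1 call was lost in 9 of 18 alternatives, with adjusted p-values from 0.000249 to 0.218, and the log2 fold change lay between −0.33 and −0.27 in all of them.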

How the results depend on the processing

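The fold changes of the members other than TDO2 kept their direction and their side of the threshold in 529 of 568 alternatives, lost the call in 12, gained it in 8 and turned in 19, and the cause was not tested. The counts of members that follow include TDO2, whose pass against control was fixed by its choice and supports nothing. With no filter on low counts 5 members passed in shLMO2-2 (KMO and CYP1A1 were gained) and 1, CYP1A1, passed between the hairpins. At an adjusted p under 0.01, 2 members, TDO2 and KYNU, passed in the mean of both. With a library left out 2 to 4 members passed in shLMO2-1 and in the mean, 2 to 3 in shLMO2-2 and 0 between hairpins. With the replicate block 4 members passed in each hairpin and in the mean, with CYP1B1 gained in shLMO2-1 (adjusted p 0.0333) and KMO in shLMO2-2 (0.026). The replicate numbers are not shown to pair the libraries: 6 of 9 same-numbered pairs had deviations correlated over 0.1 (range −0.10 to 0.39), and 5 of 9 libraries correlated best with their own number. The block raised the calls over all genes from 1239 to 2214 in shLMO2-1, from 1320 to 2377 in shLMO2-2, from 1823 to 3024 in the mean and from 113 to 257 between the hairpins.

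TIPARP in shLMO2-2 had 0.00 with a minimum of 10 counts in every library, 0.00 with only the groups compared, −0.04 with total counts and −0.08 to 0.11 with a library left out. TIPARP in the mean had −0.02 with total counts and −0.06 to 0.13 with a library left out, −0.04 to 0.14 in shLMO2-1 and −0.08 to 0.02 between the hairpins. With a library left out KMO in shLMO2-1 ranged from −0.17 to 0.16, AHR in shLMO2-2 from −0.13 to 0.09 and in the mean from −0.05 to 0.18, WARS2 in the mean from −0.09 to 0.02 and SGK1 in shLMO2-2 from −0.14 to 0.12. LMO2 in the mean was −2.46 with limma-voom (adjusted p 0.0651) and −3.25 to −2.03 with a library left out.

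Per kilobase of median transcript length the control levels were 2140 for CYP1B1, 297 for AHR, 198 for KYNU, 53.0 for CYP1A1, 16.7 for KMO, 16.6 for AFMID, 13.7 for TDO2, 12.2 for TIPARP and 2.53 for AHRR. By Spearman's correlation, 0 of the 5 genes most like TDO2 remained among the 5 highest. Calls over all genes were 695, 776 and 189 in shLMO2-1, in shLMO2-2 and between the hairpins with only the groups compared, and 378 and 310 between the hairpins with no filter and with DESeq2. With a library left out they ranged from 546 to 1397, from 494 to 1243, from 947 to 1592 in the mean, and from 38 to 239 between the hairpins. AHRR, IL6, ARNT2, UGT1A6, SLC7A8 and LMO2 rest on few counts, where depth limits what can be shown.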
